A study of Mus musculus and Rattus norvegicus with 6 samples.

Results

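The miRNAs miR-192, miR-194 and miR-215 are made from 2 small hairpin clusters, and their rows were taken from the miRNA count tables of mouse and rat retina by number, with any letter, copy or arm. The mouse table held 7 such names among 1915, and the rat table held 4 among 764, which made 11 of 2679 rows in all. The samples were retinas of wild-type C57BL/6 mice and wild-type Sprague Dawley rats, all aged 9 weeks, with 3 small RNA libraries of each species and no treatment. Strain and species change together, and each species has its own table, so strain, annotation and library preparation cannot be told apart from species here. The labels do not say that each library came from its own animal, so the p-values reflect only how these libraries scatter, and some of that scatter may be technical. The rat table used here has no row for miR-215, and rat miR-215 was not analysed here.

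A miRNA gene is transcribed as a longer primary transcript, which is cut to a hairpin and then to short RNAs from its 5p and 3p arms. The arm that is loaded into an Argonaute protein pairs with messenger RNAs mainly through its seed, bases 2 to 8, and lowers their output. The genes of miR-192 and miR-215 arose as paralogs, and each sits beside a copy of miR-194 in a shared primary transcript. These miRNAs are best known from liver, gut and kidney epithelium, where hepatocyte nuclear factors drive them, and as miRNAs induced by the tumour suppressor p53.

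The mouse sequences are shown first because they decide which cluster a read can be traced to. All 7 mouse names had a mature sequence in RefSeq (GRCm38.p6), and here capitals mark the seed.
miR-192-5p: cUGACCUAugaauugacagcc
miR-215-5p: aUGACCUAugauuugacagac
miR-194-5p: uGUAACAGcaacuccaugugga
miR-194-2-3p: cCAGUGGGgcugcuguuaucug
miR-194-1-3p: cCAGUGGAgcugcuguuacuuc
miR-192-3p: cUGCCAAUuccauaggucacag
miR-215-3p: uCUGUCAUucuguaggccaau
The names miR-192-5p and miR-215-5p share the seed UGACCUA, and no other mouse name in the RefSeq table has it. They were identical at 18 of 21 bases and differed by C1A, A12U and C20A, counted from the 5′ end with the miR-192-5p base first. The seed GUAACAG belonged to miR-194-5p alone. Both copies of miR-194 give the same 5p sequence, so a miR-194-5p read cannot be assigned to a cluster. The 3p arms can be, since miR-194-1-3p and miR-194-2-3p differed at 4 of 22 bases, by A8G (inside the seed), C19U, U20C and C22G, with the miR-194-1-3p base first. Rat sequences were not used here, so a name shared by both species was matched as a name and not as a sequence.

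The hairpins are printed to show where the arms lie, with the mature arms in capitals, the RefSeq coordinates on GRCm38.p6 and the plus strand for all 4. The count tables name no genome build.
Mir194-2, chr19:6264643-6264728: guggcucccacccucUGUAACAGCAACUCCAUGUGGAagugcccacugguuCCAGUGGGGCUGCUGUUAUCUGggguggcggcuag
Mir192, chr19:6264844-6264932: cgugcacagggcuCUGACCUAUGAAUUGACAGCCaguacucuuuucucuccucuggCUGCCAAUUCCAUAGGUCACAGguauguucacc
Mir194-1, chr1:185313319-185313385: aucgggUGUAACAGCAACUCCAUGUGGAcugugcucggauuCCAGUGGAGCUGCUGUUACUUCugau
Mir215, chr1:185313581-185313692: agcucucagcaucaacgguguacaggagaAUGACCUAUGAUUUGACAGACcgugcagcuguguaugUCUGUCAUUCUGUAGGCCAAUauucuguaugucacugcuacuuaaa
On chromosome 19, Mir194-2 and Mir192 lay 115 bases apart, in no other annotated gene, with the end of the autophagy gene Atg2a 2307 bases before Mir194-2 and the noncoding gene Gm14963 3862 bases after Mir192. On chromosome 1, Mir194-1 and Mir215 lay 195 bases apart, inside an intron of Iars2, which encodes the mitochondrial isoleucyl-tRNA synthetase on the opposite strand. The noncoding gene 2010103J01Rik runs on the same strand as these hairpins, with Mir194-1 in its intron and Mir215 in an exon.

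**Figure D1:**
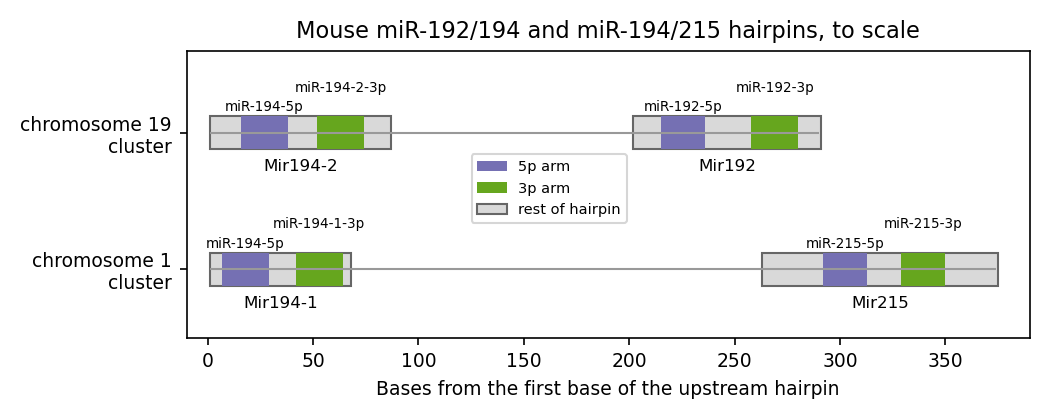
Layout of the mouse hairpins, drawn to scale in bases from the start of the upstream hairpin. Each cluster has a copy of miR-194 upstream, and 115 bases (chromosome 19) or 195 bases (chromosome 1) separate the hairpins.

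Depth was 24169628 to 30514632 counts per library, and 3 counts, the limit that a count of 0 allows, corresponded to 0.0983 to 0.124 CPM, a count divided by all counts of its library and rescaled. Markers of neural retina were high in all 6 libraries, where 5 such names summed to 450453 to 539515 CPM. Rat library r1 stood apart from r2 and r4. Among 359 rat names with at least 300 counts over the rat libraries, the median log2 CPM in r1 was 0.73 below the mean of r2 and r4 (log2 difference -0.73). Levels are therefore given by library, and the tests of the members also without r1.

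In mouse retina mmu-miR-192-5p led its group by a wide margin. Its CPM of all counts was 1120.3 in library m1, 1128.9 in m3 and 1032.3 in m4, a mean of 1093.8 ± 53.4 (SD, n = 3), which placed it 53rd of 1915 names. The partner mmu-miR-194-5p had 159 CPM in m1, 173 in m3 and 165 in m4, a mean of 166 ± 6.76 (SD, n = 3), and the 123rd place. The 3 libraries were close for both names, and the ranges of the 2 names did not overlap. Next came mmu-miR-215-5p, with counts of 104, 124 and 106 in m1, m3 and m4, or 3.85 CPM ± 0.183 (SD, n = 3), and the 394th place. It was followed by miR-194-2-3p with counts of 81, 100 and 80, or 3.01 CPM ± 0.236 (SD, n = 3), and here too the ranges of the neighbours in the order did not overlap. The last 3 mouse names were at or near the floor. The counts in m1, m3 and m4 were 1, 0 and 4 for miR-215-3p, 0, 0 and 1 for miR-194-1-3p, and 0 in each library for miR-192-3p, so these 3 have no order. The lengths of these names are alike, at 21 or 22 bases, but ligation and amplification may favour one sequence over another, and this was not tested.

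In rat retina the order of the arms was alike. The CPM of miR-192-5p was 2275.1 in r1, 1628.8 in r2 and 2279.5 in r4, a mean of 2061.1 ± 374 (SD, n = 3) and the 40th of 764 names. For miR-194-5p it was 118 in r1, 283 in r2 and 327 in r4, a mean of 242 ± 110 (SD, n = 3) and the 110th place. In r1 miR-194-5p was low while miR-192-5p was as high as in r4. The name miR-194-3p had counts of 97, 90 and 156, or 4.37 CPM ± 1.03 (SD, n = 3), and miR-192-3p had counts of 1, 4 and 8 in r1, r2 and r4. None of the ranges of neighbours in this order overlapped.

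**Figure D2:**
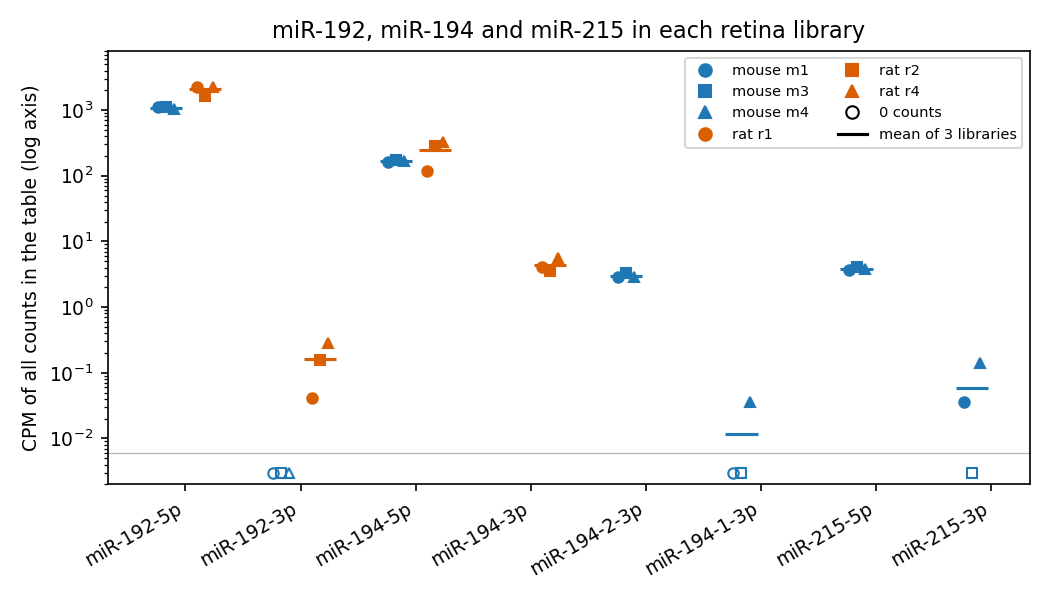
CPM of all counts (log axis) for each name in each library, with a line at the mean of 3 libraries and open symbols under the grey line for libraries with 0 counts. Both species have miR-192-5p on top (1032.3 to 1128.9 CPM in mouse, 1628.8 to 2279.5 in rat), then miR-194-5p, and the 3p arms are far lower.

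The mouse counts were divided very unequally between the clusters. For each count of miR-215-5p from chromosome 1 there were 299.9 counts of its paralog miR-192-5p from chromosome 19 in m1, 278 in m3 and 274 in m4. The share of miR-215-5p in the counts of both names was 0.332% in m1, 0.359% in m3 and 0.363% in m4, and 0.351% over all 334 of 95070 counts (95% exact interval 0.315 to 0.391). The 3p arms of miR-194 gave a like division. The chromosome 1 copy miR-194-1-3p had 1 of the 262 counts of both 3p names, a share of 0.382% (95% exact interval 0.00966 to 2.11), and miR-194-2-3p had the other 261. These intervals are Clopper-Pearson intervals and cover counting error only, since PCR copies are not independent molecules. The share seen for miR-215-5p lies inside the interval for miR-194-1-3p, which is wide because it rests on 1 count. Within each cluster, the 3p arm of miR-194 had 0.276 counts for 100 counts of miR-192-5p on chromosome 19, and 0.299 for 100 counts of miR-215-5p on chromosome 1. These ratios rearrange the counts behind the 2 shares, so their likeness adds nothing to that of the shares, and the second rests on 1 count. The 14355 mouse counts of miR-194-5p could not be divided in this way. How many mismatches the counting allowed is not given in the sources used here, and whether any miR-215-5p or miR-194-1-3p counts were misread copies of their paralogs was not tested.

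**Figure D3:**
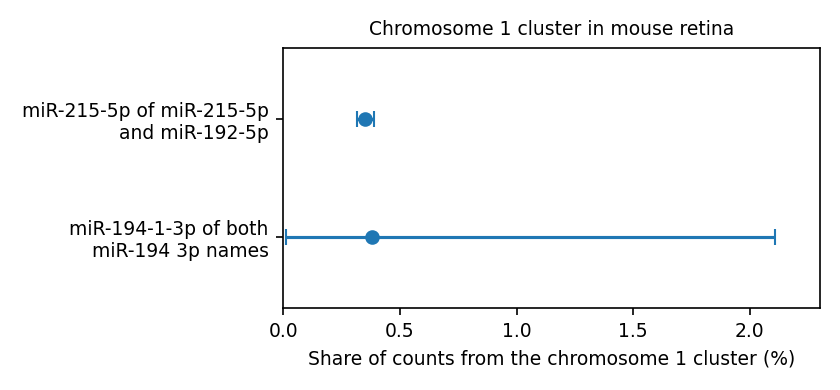
Share of mouse counts (%) from the chromosome 1 cluster, by miR-215-5p against miR-192-5p and by the 3p arms of miR-194, summed over 3 libraries, with 95% exact binomial intervals. The points lie at 0.351% and 0.382%, and the interval of the second reaches 2.11% because it rests on 1 count.

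Arm use was lopsided in these hairpins, and most so in miR-192. In mouse 0 of 94736 counts of the miR-192 hairpin were from the 3p arm, which allows a share of up to 0.00317%, so the 5p arm was at least 31579-fold higher (3 counts over the 3 libraries as floor). The 95% exact interval for the mouse share reaches 0.00389%. In rat 13 of 160483 counts were from the 3p arm, a share of 0.00810% (95% exact interval 0.00431 to 0.0139). By library the rat share was 0.00182% in r1, which rests on 1 count, 0.00971% in r2 and 0.0124% in r4. Among 38 mouse hairpins with at least as many counts as miR-192, only miR-192 and miR-101b, named after its value was seen, had 0 counts of the minor arm. Among 27 such rat hairpins, 3 had a minor-arm share at or under that of miR-192, namely miR-192 itself and, named after their values were seen, miR-26a and let-7g. The median share of the minor arm was 2.08% over 269 mouse and 2.29% over 201 rat hairpins with at least 50 counts in each library. The miR-194 hairpins were nearer to these medians, with the 3p arms at 1.79% ± 0.0777 (SD, n = 3) of mouse and 2.06% ± 1.07 (SD, n = 3) of rat miR-194 counts, with the mouse copies summed. In rat the share was 3.28% in r1, 1.24% in r2 and 1.67% in r4. For miR-215 in mouse the 3p share was 5 of 339 counts, or 1.47% (95% exact interval 0.481 to 3.41).

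Arm ratios were compared between species with limma on log2((5p + 0.5)/(3p + 0.5)), with p-values adjusted by Benjamini-Hochberg over 169 hairpins. Of these, 24.3% were called at an adjusted p under 0.05 16% toward a lower and 8.28% toward a higher 5p to 3p ratio in rat. For miR-192 the log2 ratio of 5p to 3p differed by -2.21 ± 0.61 (SE; limma adjusted p = 0.0466) in rat against mouse. This value depends on the 0 counts in mouse: with a pseudocount of 5 the difference was -0.09 (limma adjusted p = 0.852). The call was also lost without any 1 of m1, m3, m4, r2 or r4, with adjusted p between 0.119 and 0.150 in the limma fits. Without r1 the difference was -2.92 and was called (limma adjusted p = 0.000504), as were 63 of 175 hairpins tested in that run. For miR-194, with the 3p counts of the mouse copies summed, the difference was -0.08 ± 0.38 (SE; limma adjusted p = 0.901), and it was 0.32 without r1 (limma adjusted p = 0.189). That row was added to the fit after the data were seen.

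Between the species, miR-192-5p was higher in rat and miR-194-5p was not called. The test was edgeR's quasi-likelihood F test over the names that both tables share, on counts scaled by TMM factors, with Benjamini-Hochberg adjustment. Of the members, 3 names were shared exactly (miR-192-5p, miR-192-3p and miR-194-5p) and 2 passed the filter on low counts, which miR-192-3p did not. Of all 398 names tested, 50% were called, with 25.6% higher and 24.4% lower in rat, so a call is common in this comparison. On the scaled CPM of shared names, miR-192-5p lay at 1806 in m1, 1777 in m3 and 1477 in m4, and at 4432 in r1, 1819 in r2 and 2554 in r4. The groups did not overlap, as for 59.8% of all tested names, but m1 and r2 were almost level. The log2 difference of rat against mouse was 0.80 ± 0.30 (SE; edgeR adjusted p = 0.0499), which lies at the edge of the threshold of 0.05. Library r1 was the highest of all 6 on this scale, and without it the difference was 0.38 (edgeR adjusted p = 0.0231). It was still called, as were 293 of 413 names tested in that run. The call was lost with names joined more widely (0.72, edgeR adjusted p = 0.0683) and without m1, m3, m4 or r4 (edgeR adjusted p of 0.0977, 0.122, 0.167 and 0.0554). With library totals in place of TMM factors it was 1.04 (edgeR adjusted p = 0.00312), where the median of all tested names also moved up, by 0.35, and 127 names were called higher and 43 lower.

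On the same scale miR-194-5p lay at 256 in m1, 272 in m3 and 237 in m4, and at 231 in r1, 316 in r2 and 366 in r4. Library r1 was below all mouse libraries while r2 and r4 were above them. The log2 difference was 0.25 ± 0.19 (SE; edgeR adjusted p = 0.287), and 0.65 with library totals (edgeR adjusted p = 0.151). Without r1 it was 0.42 and was called (edgeR adjusted p = 0.00106), as were 293 of 413 names tested in that run. The difference of miR-194-5p was called in no other alternative run. For the 3p arm of miR-194, with the mouse copies summed and the row added after the data were seen, the log2 difference was 0.29 ± 0.26 (SE; edgeR adjusted p = 0.388), and 0.12 without r1 (edgeR adjusted p = 0.653). In a whole retina, fewer cells that make a miRNA and less of it per cell cannot be told apart.

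The balance of the cluster partners was steady in mouse and far off in 1 rat library. There were 7.04 counts of miR-192-5p for each count of miR-194-5p in m1, 6.54 in m3 and 6.24 in m4. In rat there were 5.76 in r2 and 6.98 in r4, within or near the mouse range, but 19.2 in r1. The log2 ratio of miR-194-5p to miR-192-5p was -2.72 ± 0.0877 (SD, n = 3) in mouse and -3.20 ± 0.933 (SD, n = 3) in rat, a difference of -0.48 (exact permutation test over libraries, two-sided, p = 0.8, where 3 against 3 allows no p below 0.1). Without r1 the difference turned to 0.06 (exact permutation p = 0.6). The 3p arm of miR-194 gave another order of the libraries, since miR-192-5p had 385, 345 and 359 counts for each 3p count in m1, m3 and m4, and 567, 458 and 412 in r1, r2 and r4, so all rat libraries were above all mouse libraries. The log2 ratio of the 3p arm to miR-192-5p differed by -0.39 in rat against mouse (exact permutation p = 0.1, the smallest this design allows), and -0.26 without r1. This ratio was added after the data were seen, and adjusted by Benjamini-Hochberg over the 2 ratios its p is 0.2. It rests on 81 to 156 counts of the 3p arm per library.

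**Figure D4:**
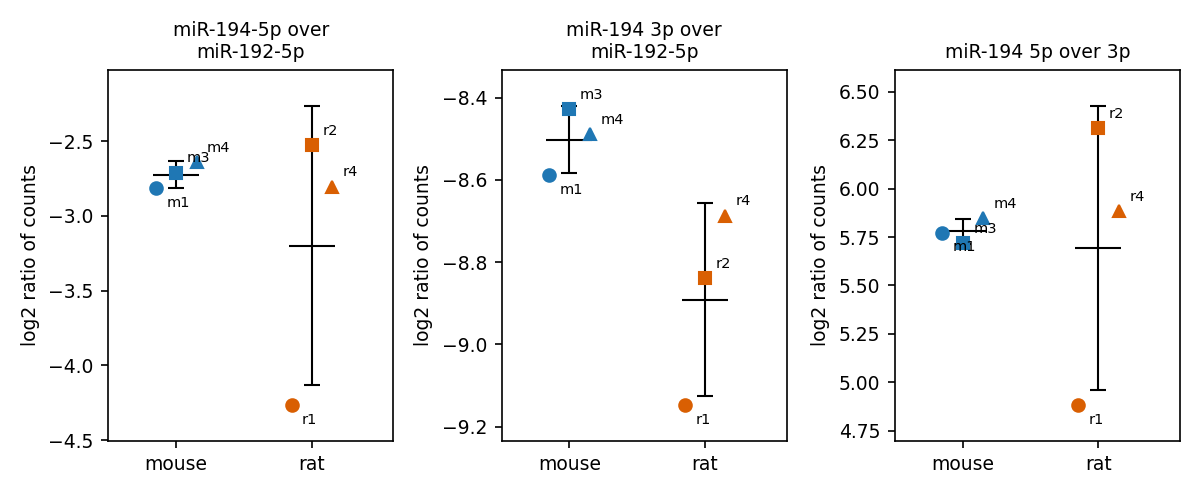
Log2 ratios of counts within each library (points) with the mean and SD of 3 libraries (black). Rat library r1 has the lowest value in each panel, at -4.26, -9.15 and 4.88, while r2 and r4 lie near the mouse libraries for miR-194-5p over miR-192-5p.

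In r1 the members moved apart. Relative to the mean log2 CPM of r2 and r4, r1 was at -1.36 for miR-194-5p, -0.14 for miR-194-3p and 0.24 for miR-192-5p. Against the median of -0.73 over 359 rat names, miR-194-5p was thus at the 22.6th percentile, miR-194-3p at the 78.3rd and miR-192-5p at the 90.5th. The miR-194 arm ratio in r1 was 29.5 counts of 5p for each 3p count, against 79.4 in r2 and 59.0 in r4, and 52.7 to 57.5 in the mouse libraries. Arms of other hairpins parted in r1 as well. Over 122 rat hairpins with at least 100 counts of each arm, the log2 arm ratio in r1 less the mean of r2 and r4 ran from -1.99 (5th percentile) to 1.56 (95th), and miR-194 at -1.22 had 18 hairpins below it. For r4 less r2 the same range was narrower, at -0.57 to 0.34. There miR-194 was at -0.42, with 14 of the 122 hairpins below it. The sign of r4 less r2 is arbitrary and r1 is not part of it. It therefore cannot show whether the low rank of miR-194 in r1 is particular to r1. What set r1 apart was not tested.

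**Figure D5:**
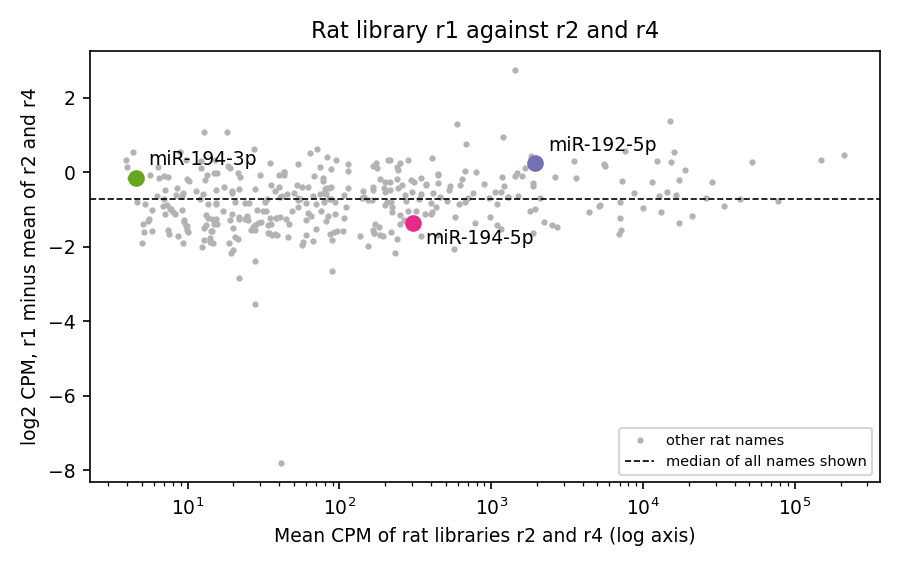
Log2 CPM in rat library r1 less the mean of r2 and r4, against the mean CPM of r2 and r4 (log axis), for 359 rat names. The dashed line is the median of -0.73, with miR-194-5p below it at -1.36 and miR-192-5p and miR-194-3p above it at 0.24 and -0.14.

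The names whose profiles over the 6 libraries were most like those of the members were taken by the root mean square distance between centred log2 scaled CPM, over 397 other tested names. For miR-192-5p these were miR-30e-3p (0.12), miR-143-3p (0.15) and miR-378a-3p (0.15), against a median distance of 0.67. Each was highest in r1, as miR-378a-3p at 21837 scaled CPM against 8030 and 8908 in r2 and r4. For miR-194-5p they were miR-7a-1-3p, miR-154-5p and miR-378a-5p, at distances of 0.0693 to 0.0705 against a median of 0.46. The partners were at a distance of 0.59 from each other, where miR-194-5p was 158th in likeness to miR-192-5p and miR-192-5p was 271st in likeness to miR-194-5p. These distances are descriptions, and libraries of 1 species share their table.

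Other miRNAs induced by p53 were called about as often as all tested names. On the wider names, where 51.8% of 450 tested names were called, 24.7% higher and 27.1% lower in rat, 2 of 10 listed miRNAs rose, 3 fell and 5 were not called. The list's median log2 difference was -0.34, against 0.03 over all tested names. The vascular and smooth muscle miRNA miR-143-3p rose (0.85 ± 0.27, edgeR adjusted p = 0.0325), as did its cluster partner miR-145a-5p (0.70 ± 0.16, edgeR adjusted p = 0.00939). The falls were in miR-16-5p, which represses cell cycle genes (-0.83 ± 0.26, edgeR adjusted p = 0.0302), miR-34c-5p (-0.86 ± 0.12, edgeR adjusted p = 0.000954) and miR-34b-5p (-1.08 ± 0.17, edgeR adjusted p = 0.00144), a pair made from 1 transcript. The difference of miR-107-3p was 0.11 ± 0.27 and was not called (edgeR adjusted p = 0.770). With library totals in place of TMM factors 2 rose and 1 fell (40.1% of all tested names were called), and without r1 3 rose and 4 fell (70.7% of all).

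Markers of liver, gut and kidney epithelium, the tissues known for miR-192, were called both higher and lower in rat. Their summed level was 365 to 462 CPM of all counts in the mouse libraries and 1127 to 1346 in the rat libraries, and none of the 8 names was at 0 over all libraries. Of 6 that passed the filter, 3 rose, 1 fell and 2 were not called, with a median log2 difference of 1.09 against 0.03 over all tested names. Of all 450 tested names 51.8% were called, 24.7% higher and 27.1% lower. The rises were in miR-375-3p, an endocrine and epithelial miRNA that made up most of the sum (1.39 ± 0.20, edgeR adjusted p = 0.000954), and in miR-200a-3p (1.40 ± 0.28, edgeR adjusted p = 0.00443) and miR-429-3p (1.55 ± 0.44, edgeR adjusted p = 0.0204) of the miR-200 family, which maintains epithelial identity. The difference of miR-200b-3p was 0.64 ± 0.42 and was not called (edgeR adjusted p = 0.234). Nor was that of miR-200c-3p, at 0.80 ± 0.32 (edgeR adjusted p = 0.0727). The hepatocyte miRNA miR-122-5p fell (-2.58 ± 0.35, edgeR adjusted p = 0.000702). Its counts were 105, 121 and 108 in mouse and 23, 19 and 16 in rat. The names that did not pass the filter went opposite ways. Counts of miR-802-5p were lower in rat, at 10, 14 and 10 in mouse and 2, 2 and 1 in rat. Those of miR-141-3p were higher in rat, at 4, 1 and 1 in mouse and 6, 14 and 19 in rat. The calls of the list were 3 higher and 1 lower of 6 with library totals, where 40.1% of all tested names were called. Without r1 all 8 names passed the filter, and 5 were higher and 2 lower, where 70.7% of all tested names were called. The part of these cells in the difference of miR-192-5p was not tested.

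Lists for the other cells that a retina dissection can carry gave these calls in rat, as higher and lower of those tested. Over all 450 tested names 24.7% were called higher and 27.1% lower. The miR-204 and miR-211 pair of pigment epithelium and neural retina had 2 and 0 of 2, surface epithelium and lens 0 and 1 of 4, and red blood cells 1 and 2 of 4. Vascular and mesenchymal names had 2 and 1 of 5, leukocytes and microglia 1 and 1 of 5, muscle 0 and 2 of 3, and neural retina 0 and 1 of 5. Among these the summed level of the surface epithelium and lens list moved with r1, at 9455 CPM in r1 against 1902 in r2 and 1266 in r4, with miR-184-3p, abundant in cornea and lens, making up most of it. In mouse that sum ranged from 452 to 1389 CPM. Of the list, only miR-184-3p was highest in r1. The other names, miR-203-3p, miR-31-5p and miR-205-5p, were each lowest in r1 among the rat libraries. For miR-203-3p the level was 52.05 CPM in r1 against 78.43 in r2 and 91.71 in r4. The high sum in r1 is thus that of miR-184-3p and not of the list as a set. The part of these cells in the values of miR-192-5p and miR-194-5p in r1 was not tested.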

How the data were processed

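The deposited tables, 1 for each species, give the authors' raw read counts for each mature miRNA name, without any normalization. Per the labels' protocols, miRNeasy RNA was made into libraries by Illumina protocols and sequenced on a HiSeq-2500 with single reads of 50 bases. The sources used here do not give the aligner, its mismatch limit, the annotation release or the handling of multiply matching reads. Columns were assigned to a species only, since their numbers are not those of the labels.

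Names were joined after removal of the species prefix (542 shared). The wider match added 73 names that lack an arm suffix or differ by a letter a in 1 table, an armless name being joined to an arm with at least 10 times its partner's counts. Differences in abundance were tested by the quasi-likelihood F test of edgeR 4.0.16 (R 4.3.3), after filterByExpr and TMM scaling, with species as the sole covariate, arm ratios with limma 3.58.1, and partner ratios with an exact permutation test. Calls needed an adjusted p (Benjamini-Hochberg) under 0.05. SEs of edgeR differences were derived from the F statistic. Alternatives were library totals, DESeq2 1.42.0, no filter, wider names, other pseudocounts and minimums, and each library left out. The edgeR and limma arm tests were also run on simulated counts, and no result here rests on those runs.

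All members are named, with up to 4 of the most abundant names of the p53 and epithelial lists and other called members of these. The liver, gut and kidney names that did not pass the filter are also named, as are the 3 nearest profiles of each tested member. Members and lists were chosen with earlier results of these data known. The planned comparison of miR-215 between species was not made. Rows for miR-194-3p were added after the data were seen.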

Additional observations from a re-analysis of the deposited data

How the results depend on the processing

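Numbers of called names stayed within 1.5 times under the alternatives run: 153 to 293 of the shared names when 1 library was left out (199 in all 6), 193 to 333 of the wider names (233), and 170 to 256 with another scaling, tool or filter. The exception was the arm test, with 26 to 63 called hairpins when 1 library was left out (41 in all 6), the extremes being without m3 and without r1, and 27 without m1. The log2 difference of miR-192-5p kept its sign throughout, between 0.38 and 1.06 with 1 library left out, and 0.72 with wider names. The difference of miR-192-5p was not called with wider names, nor without m1, m3, m4 or r4. That of miR-194-5p ran from 0.11 to 0.42 with 1 library left out and was 0.65 with library totals. The arm difference of miR-192 ran from -2.92 to -1.78 with 1 library left out and was -0.09 with a pseudocount of 5, a value set by the 0 counts in mouse. The arm difference of miR-194 ran from -0.39 to 0.32 and the ratio of miR-194-5p to miR-192-5p differed by -0.81 to 0.058, both turning only without r1. The cause was not tested. The difference of miR-194-3p was not called in any alternative run (0.12 to 0.53). No value could be had for miR-192-3p with the filter, and none for miR-215. No paired analysis was possible because the count columns carry no replicate number of the labels. The labels also do not state that a mouse and a rat library with the same number form a pair. Depth limits the 3p arms of miR-192, miR-215 and miR-194-1, all near 3 counts.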
